A study of Homo sapiens with 8 samples.

Results

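Of the 60234 gene rows in the deposited table, 9 are the subject here: the histone H3 lysine 9 (H3K9) methyltransferases other than G9a and its partner GLP, the cofactors of one of them, and the heterochromatin protein 1 (HP1) readers of the mark. They were taken by gene symbol and fall into 4 writers (SUV39H1, SUV39H2, SETDB1 and SETDB2), 2 cofactors (TRIM28 and ATF7IP) and 3 readers (CBX1, CBX3 and CBX5). Each symbol stood on 1 row. CPM, the unit of the table, is a gene's reads scaled to the total of reads assigned to genes in its library. All 9 genes averaged 1 CPM or more and were tested. The samples were 8 QuantSeq 3′ libraries of total RNA from Rh41, an alveolar rhabdomyosarcoma cell line positive for the PAX3-FOXO1 fusion. This tumour arises in soft tissue and has muscle features. By their labels, 4 libraries came from control cells and 4, named siG9a, from cells with a knockdown of G9a. What the control cells received, the knockdown reagent and the time of harvest are not given in the labels. The series title calls the cells shG9a, and the sample labels siG9a. Both groups are the same line, so no other rhabdomyosarcoma line bears on these results.

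Dimethyl and trimethyl H3K9 are among the marks of silent chromatin. SUV39H1 and SUV39H2 write trimethylation at pericentromeric repeats. SETDB1 writes it at retroelements and within euchromatin, where TRIM28 (KAP1) brings it to sites bound by KRAB zinc finger proteins and ATF7IP stabilizes it in the nucleus. SETDB2 is a related enzyme with a divided SET domain. The HP1 proteins HP1β (CBX1), HP1γ (CBX3) and HP1α (CBX5) bind methylated H3K9 through a chromodomain and recruit further factors through a chromoshadow domain. G9a, encoded by EHMT2, and GLP, encoded by EHMT1, write mainly monomethyl and dimethyl H3K9 in euchromatin.

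EHMT2, the targeted gene, was lower in the siG9a library of each replicate number than in the control library of that number. Of its 7 rows in the table, 6 were at 0 throughout, and the row with reads was used. It measured 57.6, 68.1, 87.3 and 88.3 CPM in controls 1 to 4, and 19.6, 35.1, 33.1 and 58.5 CPM in siG9a replicates 1 to 4. Each siG9a library was thus at 34.0%, 51.6%, 37.9% and 66.3% of its numbered control. EHMT2 was called lower when the replicate number was a block (log2 change −1.10 ± 0.19 SE, limma adjusted p = 0.000472) and not without it (± 0.31 SE, adjusted p = 0.191). EHMT1 did not pass the test (log2 change −0.21 ± 0.23 SE, limma adjusted p = 0.764).

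Libraries held 1458825 to 1938665 reads assigned to genes, so 1 read was worth between 0.516 and 0.685 CPM. Both replicate 3 libraries stood apart. The summed CPM of 8 rhabdomyosarcoma markers was 293 in control replicate 3 and 301 in siG9a replicate 3, against 991 to 1832 in the other 6 libraries. The summed CPM of 6 neural markers, most of it NEFM and NEFL, was 9665 and 8971 there. The 6 other libraries were not alike in this sum. It was 192 and 223 in control and siG9a replicate 1, and 1838 to 2960 in numbers 2 and 4. Endothelial markers summed to at most 2.08 CPM, with CDH5 at 0 in every library, and leukocyte markers to at most 9.71 CPM. Epithelial markers summed to 75.6 and 44.0 CPM in control and siG9a replicate 3, against 10.3 to 32.7 CPM elsewhere. Fibroblast markers summed to 112 and 51.4 CPM there, against 146 to 395 CPM elsewhere. Some markers also differed between the groups. With the block, limma called 3 of the 8 rhabdomyosarcoma markers, all lower: DES, which encodes desmin (log2 change −1.77, adjusted p = 6.69e-06), CHRNA1, a subunit of the muscle acetylcholine receptor (−1.15, 7.52e-05), and FGFR4 (−0.59, 0.0229). It called lower 1 of 3 tested fibroblast markers, COL1A1 (−0.85, 0.0410), and 1 of 4 tested epithelial markers, CDH1 (−1.47, 0.0171). Over all genes tested it called 11.4%, and 6.52% as lower. COL1A1 in siG9a was at 92.8%, 36.5%, 21.7% and 117% of control in numbers 1 to 4. CDH1 rests on 1 to 31 reads per library. Called or not, 2 rhabdomyosarcoma markers were higher and 6 lower. For fibroblast markers this was 1 higher and 2 lower, and for epithelial markers 3 higher and 1 lower. Of 5 tested neural and 2 tested leukocyte markers, 0 were called. No listed marker was called without the block. The part of these markers in the members' results was not tested. Since replicate 3 stands apart, the members' results are also given without the replicate 3 libraries where this changes a call. For the markers and the other pathway genes, calls without replicate 3 are not given. These are bulk samples, so fewer cells of a type and less RNA per cell cannot be told apart.

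The comparison of siG9a with control asked whether the remaining writers and readers of H3K9 methylation moved when G9a was lowered. On the log2(CPM + 1) scale CBX1 had the highest change of the 9 (0.80) and ATF7IP the lowest (−0.79). SUV39H1 was lower than ATF7IP with edgeR (−0.86 against −0.72) and DESeq2 (−0.88 against −0.73) on recovered reads. In limma without a block, 0 of the 9 genes were called at an adjusted p under 0.05, where 0.0% of the 15092 genes tested were called. At an unadjusted p under 0.05, 3 members passed (CBX1, SETDB1 and ATF7IP), and 12.5% of all genes tested did so. With the replicate number as a block, limma called 2 of 9, while 11.4% of all genes tested were called. CBX1 was the 1 member called higher, as were 4.86% of genes, and ATF7IP the 1 called lower, as were 6.52%. On reads recovered from the CPM, edgeR with the block called the same 2 members (11.3% of all genes) and DESeq2 with the block called CBX1 (6.2%). Without the block, edgeR called 0 members (0.0% of genes) and DESeq2 0 (1.93%). The groups had no overlap in 2 members, a property that 7.32% of all genes tested had. SETDB1 lay higher without overlap (3.88% of genes) and CBX3 lower (3.45%). SETDB1, SETDB2 and CBX1 were higher in 4 of 4 replicate numbers and CBX3 was lower in 4 of 4, where 14.9% of all genes tested were higher throughout, 15.3% lower throughout and 30.2% either. The median log2 change was −0.04 over the 9 members and 0.01 over all genes tested, with 4 members higher and 5 lower. SUV39H2 was counted as higher (0.13), though its mean was 4.545 CPM in control and 4.34 CPM in siG9a. Its sign was the reverse with edgeR (−0.073) and DESeq2 (−0.082) without the block. The plot of log2 changes shows the limma change of each member with its intervals.

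**Figure D1:**
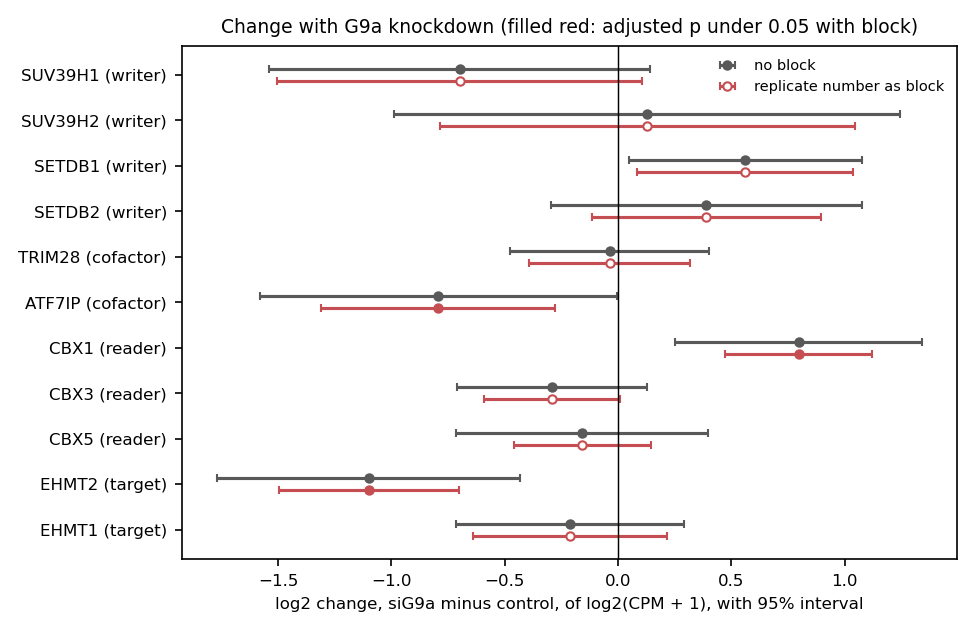
Log2 change (siG9a minus control, of log2(CPM + 1)) of the 9 genes and of EHMT2 and EHMT1, with 95% confidence intervals from limma without a block (grey) and with the replicate number as a block (red, filled where the adjusted p is under 0.05). CBX1 and ATF7IP lie on opposite sides of 0 with filled symbols, and SETDB1, whose intervals also leave out 0, was not called after adjustment.

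To place the members that were called with the block or had groups without overlap, their promoters are shown, from 250 bases before to 50 bases after the first start listed for the gene in RefSeq (GRCh38.p14). CG pairs, the sites of DNA methylation, are in capitals, and the sequences run 5′ to 3′ on the strand of the gene. Of the 9 members, 8 were matched in the table, all except TRIM28.
CBX1 promoter, chr17:48101137-48101436, - strand: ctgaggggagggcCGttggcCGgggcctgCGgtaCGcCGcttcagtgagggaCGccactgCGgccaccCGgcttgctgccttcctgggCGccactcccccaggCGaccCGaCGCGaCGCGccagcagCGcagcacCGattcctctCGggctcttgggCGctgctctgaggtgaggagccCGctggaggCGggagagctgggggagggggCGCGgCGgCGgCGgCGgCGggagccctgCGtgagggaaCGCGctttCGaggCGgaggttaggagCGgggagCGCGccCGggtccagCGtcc
SETDB1 promoter, chr1:150926013-150926312, + strand: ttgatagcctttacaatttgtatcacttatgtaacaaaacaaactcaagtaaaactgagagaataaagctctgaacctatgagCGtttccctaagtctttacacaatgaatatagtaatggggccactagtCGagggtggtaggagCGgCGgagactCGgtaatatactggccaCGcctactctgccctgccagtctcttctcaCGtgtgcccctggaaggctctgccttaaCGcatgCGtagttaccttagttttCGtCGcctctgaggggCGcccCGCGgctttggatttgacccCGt
ATF7IP promoter, chr12:14365432-14365731, + strand: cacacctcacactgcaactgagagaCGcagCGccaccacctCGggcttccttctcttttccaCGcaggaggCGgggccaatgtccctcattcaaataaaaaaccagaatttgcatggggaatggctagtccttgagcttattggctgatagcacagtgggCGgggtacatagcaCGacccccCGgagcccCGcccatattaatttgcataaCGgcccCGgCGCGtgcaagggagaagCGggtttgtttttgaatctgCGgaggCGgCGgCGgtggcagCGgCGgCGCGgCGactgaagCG
CBX3 promoter, chr7:26201193-26201492, + strand: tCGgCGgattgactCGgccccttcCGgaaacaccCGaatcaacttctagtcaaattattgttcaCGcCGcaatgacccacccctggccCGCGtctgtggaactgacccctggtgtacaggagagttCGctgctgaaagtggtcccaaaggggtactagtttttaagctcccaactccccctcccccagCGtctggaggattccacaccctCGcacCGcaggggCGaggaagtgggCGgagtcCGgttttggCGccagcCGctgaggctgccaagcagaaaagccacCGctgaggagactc
The CBX1 window held 38 CG pairs, more than 90.1% of 35116 promoters of the same length, whose median was 14. ATF7IP held 24, CBX3 19 and SETDB1 15, more than 66.1%, 57.1% and 51.1% of those promoters. Of the members not shown, SUV39H2 held 44, SETDB2 29, CBX5 25 and SUV39H1 7, more than 95.8%, 75.8%, 68.0% and 36.8% of those promoters. At least 1 CG pair is found in 96.0% of them. The first start is 1 of 6 listed for ATF7IP and 1 of 2 for SETDB1, and neither methylation nor start use was measured here.

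The members covered a wide range of levels. QuantSeq primes on the poly(A) tail and reads transcript ends, so CPM needs no correction for length between genes. CBX3 was highest, with a mean of 1584 CPM over all libraries, above 99.6% of the genes tested. CBX5 followed with 324 CPM and CBX1 with 161 CPM, and CBX5 was above CBX1 in each library, by 1.32 to 4.35 times. TRIM28 averaged 75.0 CPM and ATF7IP 29.5 CPM, and their ranges over the libraries did not overlap. SETDB2 (23.0 CPM) and SETDB1 (22.9 CPM) overlapped in range, as did SUV39H1 (5.45 CPM) and SUV39H2 (4.44 CPM), so no order can be given within those pairs. Reader transcripts outnumbered writer transcripts: the 3 HP1 genes summed to 1733 to 2390 CPM in a library and the 4 writers to 43.0 to 67.1 CPM.

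**Figure D2:**
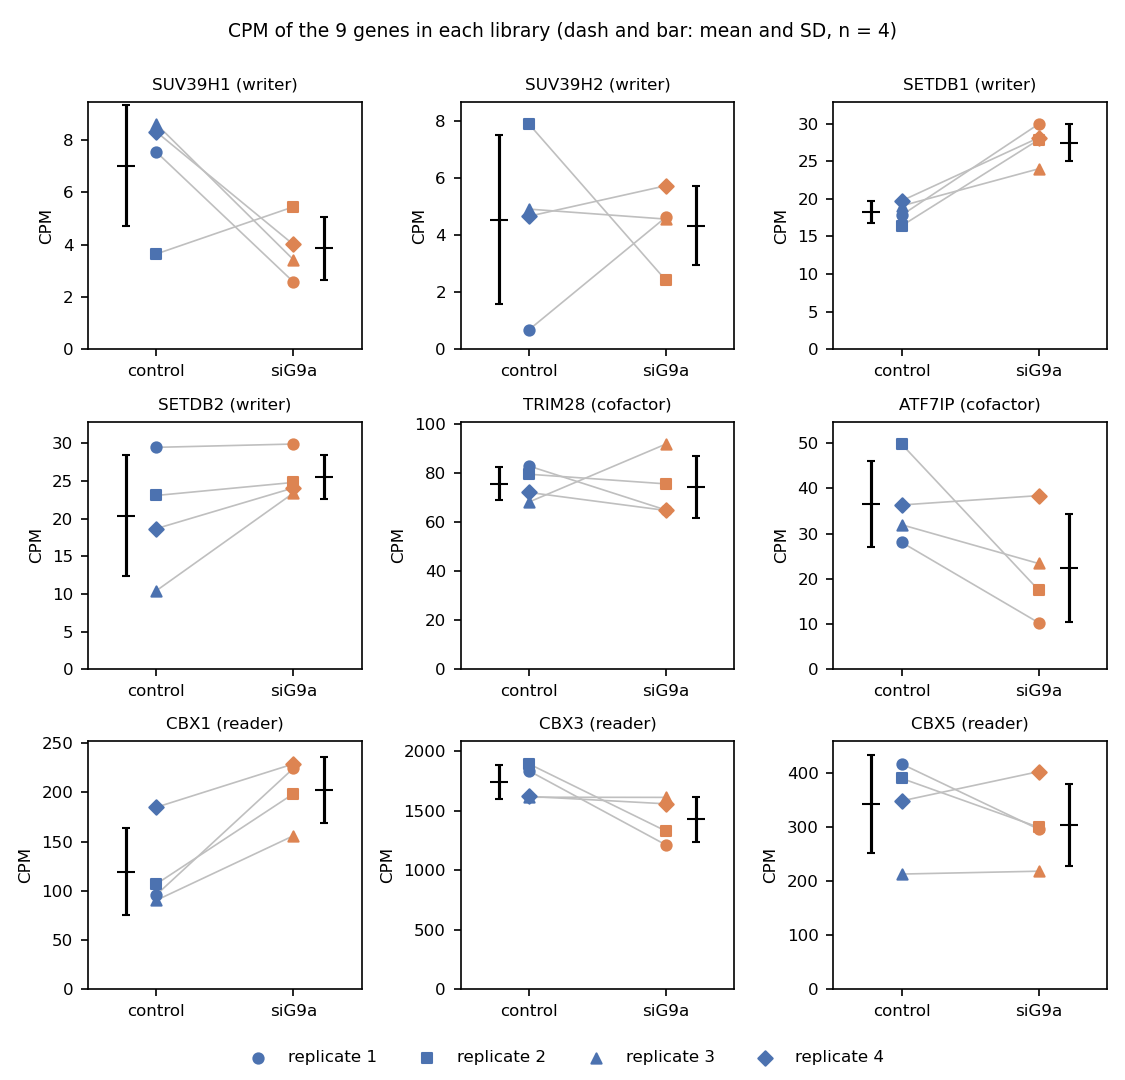
CPM of each of the 9 genes in each library, from 0 on a linear axis that differs between genes, with control in blue, siG9a in orange, grey lines joining libraries with the same replicate number, and the mean and SD of each group (n = 4) beside the points. The lines of CBX1, SETDB1 and SETDB2 go up in all 4 replicate numbers, and those of SUV39H2 cross.

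SETDB1, the writer partnered by TRIM28 and ATF7IP, measured 17.8, 16.4, 19.1 and 19.7 CPM in control replicates 1 to 4. In siG9a it measured 29.9, 27.8, 23.98 and 28.1 CPM, so the lowest siG9a library lay above the highest control library. Mean levels were 18.3 ± 1.46 CPM (control) and 27.5 ± 2.498 CPM (siG9a; SD, n = 4), which rest on 26 to 58 reads per library. This is a log2 change of 0.56 ± 0.24 (SE), a 1.48-fold difference with a 95% interval of 1.03 to 2.11. SETDB1 was not called by limma (adjusted p = 0.361, or 0.120 in the paired fit). In GENCODE release 29, 948 exon bases of SETDB1 lie in CERS2, a ceramide synthase gene on the opposite strand. CERS2 ranged from 13.7 to 33.2 CPM in control and from 24.2 to 39.7 CPM in siG9a and was higher in 4 of 4 replicate numbers. Whether the counting used strand is not given in the sources used here, and without strand, reads on the shared bases cannot be assigned to 1 gene. The part of CERS2 in the SETDB1 values was not tested.

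SETDB2 measured 29.5, 23.1, 10.5 and 18.7 CPM in the control libraries in order of their number, against 29.9, 24.8, 23.4 and 24.1 CPM in the siG9a libraries. The siG9a libraries lay close together, whereas control replicate 3 was well under the rest. In replicate number 3 the siG9a value was 224% of the control value, and in numbers 1, 2 and 4 it was 101%, 107% and 129%. The log2 change was 0.39 ± 0.32 (SE, limma adjusted p = 0.671), and 0.16 without both replicate 3 libraries, 0.12 without control replicate 3 alone, and 0.59 without control replicate 1.

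SUV39H1 and SUV39H2, the pericentromeric writers, were both near the depth limit. SUV39H1 measured 7.54, 3.65, 8.61 and 8.31 CPM in the control libraries, from 6 to 16 reads, and 2.58, 5.45, 3.43 and 4.01 CPM in siG9a, from 5 to 9 reads. It was lower in siG9a in replicate numbers 1, 3 and 4 and higher in number 2, and the groups overlapped. Counting error is wide here: in control replicate 3, the highest library, the 95% Wilson interval was 5.13 to 14.5 CPM. SUV39H1 was not called (log2 change −0.70 ± 0.39 SE, 95% interval −1.54 to 0.14, limma adjusted p = 0.501, or 0.274 in the paired fit). SUV39H2 measured 0.69, 7.90, 4.92 and 4.67 CPM in control and 4.64, 2.42, 4.57 and 5.74 CPM in siG9a. The lowest of these was 1 read and the highest 13 reads. Its interval, from 0.505-fold to 2.37-fold, held changes of either direction, so no direction can be given for SUV39H2. Of the 70 to 130 reads on the 4 writers in a library, SUV39H1 held 14.2 ± 5.41% in control and 6.38 ± 2.11% in siG9a (SD, n = 4).

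ATF7IP, which binds SETDB1, was the other member called with the block. It measured 28.1, 49.8, 32.0 and 36.4 CPM in controls 1 to 4, and 10.3, 17.6, 23.4 and 38.4 CPM in the siG9a libraries, from 20 to 82 reads. By replicate number, siG9a was at 36.7%, 35.2%, 73.2% and 106% of control. Replicates 1 and 2 showed the large differences, replicate 3 a smaller one and replicate 4 none, so the groups overlapped. Mean levels were 36.6 ± 9.46 CPM (control) and 22.4 ± 11.9 CPM (siG9a; SD, n = 4). The log2 change of −0.79 had an SE of 0.36 unpaired (limma adjusted p = 0.398) and 0.25 when paired (0.0398). Without siG9a replicate 1 it was −0.49 in the unpaired fit. The paired call was lost when replicate number 1 was left out (log2 change −0.60, limma adjusted p = 0.193), number 2 (−0.57, 0.308) or number 3 (−0.91, 0.0606), and kept without number 4 (−1.08, 0.0150). It was also lost with DESeq2 on recovered reads with the block (adjusted p = 0.141).

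TRIM28, the corepressor that recruits SETDB1, measured 82.9, 79.6, 68.3 and 72.2 CPM in the control libraries, and 65.0, 75.7, 91.9 and 64.8 CPM under knockdown. It was lower in 3 replicate numbers and higher in number 3. It was not called (log2 change −0.04 ± 0.20 SE, limma adjusted p = 0.964), and the 95% interval ran from 0.718-fold to 1.32-fold. The difference changes sign when control replicate 1, siG9a replicate 1 or siG9a replicate 4 is left out. Together, TRIM28 and ATF7IP summed to 112 ± 12.3 CPM in controls and 96.8 ± 16.9 CPM under knockdown (SD, n = 4), with overlapping groups.

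CBX1, which encodes HP1β, measured 96.0, 107, 90.4 and 185 CPM in control replicates 1 to 4. In siG9a it measured 224, 199, 156 and 229 CPM, from 140 to 435 reads per library over both groups. Control replicate 4 lay within the siG9a range, above siG9a replicate 3, so the groups overlapped, while the other 3 control libraries lay under each siG9a library. By replicate number, siG9a was at 234%, 186%, 172% and 124% of control. Mean levels were 119.5 ± 44.1 CPM (control) and 202 ± 33.5 CPM (siG9a; SD, n = 4). The log2 change was 0.80, a 1.74-fold difference, with a 95% interval of 1.19 to 2.53 without the block and 1.39 to 2.18 with it. CBX1 was called when paired (limma adjusted p = 0.00150) and not otherwise (0.233). The paired call held in each of the 4 fits that left out 1 replicate number, with limma adjusted p-values from 0.000689 to 0.0272, and it was 0.0125 without replicate number 3. A rise larger than that of CBX1 was found in 6.25% of all genes tested. The table lists 5 CBX1 pseudogenes, 2 of them with reads. These summed to 3.69 to 6.08 CPM in control libraries and 7.87 to 13.7 CPM in siG9a, at most 8.79% of the CBX1 value in a library, and reads from the parent gene and such copies may be split between them.

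CBX3, which encodes HP1γ, measured 1834, 1893, 1613 and 1620 CPM in controls 1 to 4, and 1212, 1329, 1612 and 1558 CPM in the siG9a libraries. The groups did not overlap, but control replicate 3 and siG9a replicate 3 were nearly equal (99.9% of control), as was number 4 (96.2%). In numbers 1 and 2, siG9a was at 66.1% and 70.2% of control. CBX3 was not called (log2 change −0.29 ± 0.19 SE, limma adjusted p = 0.578, or 0.214 in the paired fit), and the 95% interval ran from 0.611-fold to 1.09-fold. The table lists 9 CBX3 pseudogenes, 6 with reads, which summed to 51.0 to 67.5 CPM in control and at most 47.5 CPM in siG9a, no more than 4.17% of CBX3 in any library. In GENCODE release 29, 368 exon bases of CBX3 lie in HNRNPA2B1, a splicing regulator gene on the opposite strand. HNRNPA2B1 was higher in 4 of 4 replicate numbers, and its part in the CBX3 values was not tested.

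CBX5, which encodes HP1α, measured 417, 391, 213 and 349 CPM in the control libraries by number, and 297, 300.2, 219 and 403 CPM in the siG9a libraries. Both replicate 3 libraries were the lowest of their group, and the siG9a values were 71.0%, 76.8%, 102% and 116% of control in numbers 1 to 4. CBX5 was not called (log2 change −0.16 ± 0.26 SE, limma adjusted p = 0.865), and the 95% interval ran from 0.610-fold to 1.32-fold. The value moved with single libraries: it was −0.37 without control replicate 3 and −0.0092 without siG9a replicate 3. It was also moved by leaving out control replicate 1 (−0.047), control replicate 2 (−0.079) or siG9a replicate 4 (−0.30).

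The make-up of HP1 transcripts was set out per library, since it does not depend on the scaling of the libraries. CBX1 held 4.09%, 4.47%, 4.72% and 8.58% of the reads on the 3 HP1 genes in controls 1 to 4, and 12.9%, 10.9%, 7.85% and 10.5% in siG9a. The 95% Wilson intervals of control replicate 4 (7.77% to 9.47%) and siG9a replicate 3 (6.999% to 8.79%) overlapped. Those of replicates 1 lay apart (3.47% to 4.80% in control and 11.9% to 14.1% in siG9a). The mean share was 5.47 ± 2.09% in control and 10.5 ± 2.09% in siG9a (SD, n = 4), higher in 4 of 4 replicate numbers, and siG9a replicate 3 lay under control replicate 4. CBX3 held 79.2 ± 3.72% in control and 73.7 ± 5.07% in siG9a, lower in 4 of 4. CBX5 held 15.4 ± 2.91% and 15.7 ± 3.26%, and was lowest in both replicate 3 libraries (11.1% and 11.0%). The ratio of CBX5 to CBX1, set out after the values were seen and not tested, was 4.35, 3.65, 2.36 and 1.89 in the control libraries and 1.32, 1.51, 1.40 and 1.76 in the siG9a libraries, with both replicate 4 libraries close together. All 3 genes together summed to 2202 ± 216 CPM in control cells and 1934 ± 199.9 CPM after knockdown (SD, n = 4), higher in 2 of 4 replicate numbers.

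**Figure D3:**
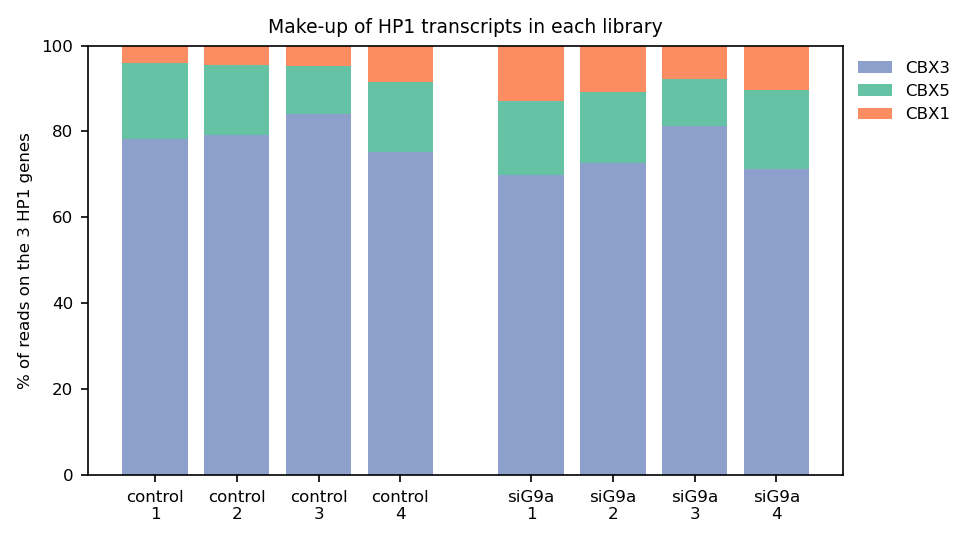
Share of the reads on the 3 HP1 genes that fell on CBX3, CBX5 and CBX1, in percent, as 1 stacked bar for each of the 4 control and 4 siG9a libraries. The CBX1 part is 4.09% to 8.58% in control and 7.85% to 12.9% in siG9a, with control replicate 4 nearest to the siG9a bars.

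To look for compensation between writers, the writers were then set beside EHMT2. The summed CPM of the 4 writers was 55.5, 51.0, 43.0 and 51.4 in the control libraries, and 67.1, 60.5, 55.4 and 61.9 in the siG9a libraries. It was higher in each of the 4 replicate numbers, and control replicate 1 and siG9a replicate 3 were nearly equal. The difference in mean was 11.0 CPM, of which SETDB1 gave 9.21 CPM and SETDB2 5.13 CPM, with SUV39H1 at −3.16 CPM. EHMT2 differed by −38.7 CPM over the same libraries. No writer was called in either fit, so these sums are given as a description.

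The differences were not alike over the replicate numbers. CBX1 differed most in number 1 (log2 difference 1.22) and least in number 4 (0.31), as did EHMT2 (−1.51 and −0.59). In numbers 2 and 3 their order was not the same: CBX1 differed by 0.89 and 0.78, and EHMT2 by −0.94 and −1.37. ATF7IP, CBX3 and CBX5 were all lower in numbers 1 and 2 (−0.38 to −1.45), and ran from −0.43 to 0.21 in numbers 3 and 4. SETDB1 had the narrowest range of the 9 members, from 0.32 to 0.73. Mitochondrial genes took a larger share of reads in siG9a in 4 of 4 replicate numbers, by more in numbers 1 and 2 than in 3 and 4. That share was 9.18%, 5.58%, 4.68% and 4.59% in controls 1 to 4, and 13.7%, 11.4%, 6.53% and 5.21% in siG9a. Its part in these results was not tested.

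**Figure D4:**
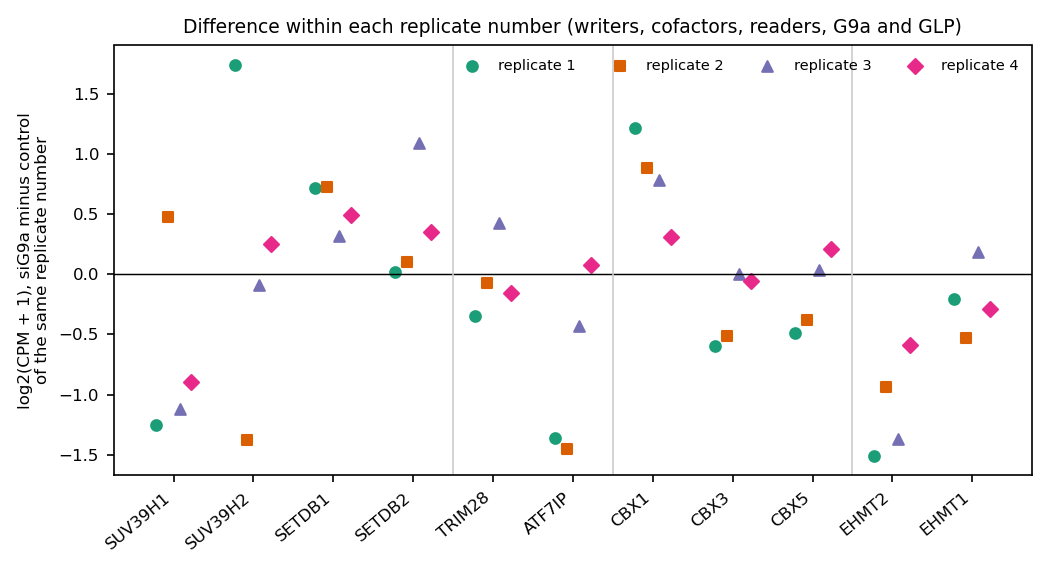
Difference in log2(CPM + 1) between the siG9a and the control library of each replicate number, for the writers, cofactors, readers and EHMT2 with EHMT1, 1 symbol per replicate number. CBX1, SETDB1 and SETDB2 lie above 0 in all 4 numbers, while ATF7IP, CBX3 and CBX5 lie below 0 in numbers 1 and 2 and from −0.057 to 0.21 in number 4.

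Of the 26 other genes of the pathway that were listed, 24 passed the filter. Limma without the block called 0 of them, and the fit with the block called 3 (12.5%), near the 11.4% of all genes tested. LRIF1, a ligand-dependent nuclear receptor interacting factor that binds HP1, measured 17.8, 29.8, 16.6 and 43.1 CPM in controls 1 to 4, and 76.3, 55.1, 35.4 and 58.5 CPM in the siG9a libraries. It was higher in 4 of 4 replicate numbers (log2 change 1.096, limma adjusted p = 0.226 unpaired and 0.00223 paired). INCENP, a subunit of the chromosomal passenger complex with an HP1 binding site, went from 139 ± 29.7 to 204 ± 53.2 CPM (SD, n = 4; limma adjusted p = 0.379 unpaired and 0.0423 paired). It was higher in numbers 1 to 3 and lower in number 4. KMT5B (listed as SUV420H1), which writes H4K20 methylation downstream of HP1, measured 109, 102, 92.2 and 132 CPM in controls 1 to 4, and 69.1, 73.8, 62.2 and 88.9 CPM in the siG9a libraries. Its groups did not overlap, where those of 7.32% of all genes tested did not. The siG9a values were 63.4% to 72.3% of control (log2 change −0.56 ± 0.21 SE, limma adjusted p = 0.2996 unpaired and 0.0210 paired). The other 21 tested genes were not called in either fit. They include all 4 listed genes of the HUSH complex with MORC2, which silences with SETDB1. Also among them are 10 of the 12 HP1 partners and heterochromatin assembly factors, and the 3 paralogs of the cofactors. MPHOSPH8 of the HUSH complex, though not called, also had groups without overlap, with siG9a higher. Of the 24 tested genes, 15 were higher and 9 lower, with a median log2 change of 0.08.

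Several of these genes are also known to follow the cell cycle, so a list of 20 proliferation genes was set beside them. Their summed CPM was 5915 to 6604 in control and 5613 to 6898 in siG9a, with overlapping groups. Limma with the block called 4 of the 20, 1 higher and 3 lower, where 11.4% of all genes tested were called, 4.86% higher and 6.52% lower. In the list 10 genes were higher and 10 lower, with a median log2 change of −0.0021, and TOP2A, at 3206 CPM in control and 3324 CPM in siG9a, gave most of the sum. The part of proliferation in the members' values was not tested.

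The genes whose levels over the 8 libraries were most like CBX1 were TULP3, SRSF10, CHM, LRIF1 and DYRK1A, among the 8897 genes that averaged 10 CPM or more. Their Pearson correlations with CBX1 in log2(CPM + 1) were 0.973, 0.971, 0.968, 0.963 and 0.958. The 8 points share the 2 groups and the replicate numbers, so these values describe likeness only. TULP3 went from 30.6 CPM in control to 68.6 CPM in siG9a, LRIF1 from 26.8 to 56.3 CPM and SRSF10 from 196 to 236 CPM.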

How the data were processed

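Gene expression was measured by QuantSeq 3′ sequencing in 8 Rh41 libraries, 4 control and 4 siG9a, grouped by the sample titles. The values are CPM, scaled by the authors and deposited to 2 decimals, per the file headers. The submitters' processing notes name FastQC 0.11.8, Trim Galore, STAR 2.5.0a, HTSeq 0.8.0 and edgeR 3.28, and the builds GRCh38 and hg19, without role or order, so no coordinates of the counted genes are given. In each library 100% of non-zero values were whole multiples of 1 read (back-computed CPM within 0.01), which gave the read numbers and depths of 1458825 to 1938665. Intervals on single libraries are 95% Wilson intervals (scipy 1.17.1) and cover counting error only. Per the series text, replicates are biological; whether they were separate cultures is not said, so p-values measure only the spread between these samples.

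The test was limma 3.58.1 (R 4.3.3) on log2(CPM + 1) with eBayes and trend, two-sided, on the 15092 genes that averaged 1 CPM or more over the 8 libraries, adjusted over all of them by Benjamini-Hochberg at 0.05. Fold changes are on that scale and understate low genes. The paired fit added the replicate number as a block. The numbers come from the sample titles, which do not say what they share. Deviations from the group mean correlated across genes by 0.50, 0.10, 0.67 and 0.13 in numbers 1 to 4, each above 0.1, so they were taken as pairs. Numbers 2 and 4 were not told apart as pairs by these correlations. Control replicate 2 correlated with siG9a replicate 4 by 0.14, above the values of both numbers, and control replicate 4 with siG9a replicate 2 by 0.091. In numbers 1 and 3 each library was most like the library of its own number. The paired calls rest on taking all 4 numbers as pairs. Alternatives were pseudocounts, filters, scalings, array weights, edgeR 4.0.16 and DESeq2 1.42.0 on recovered reads, and left-out libraries. The scripts were tested on simulated data. GENCODE release 29 was used only for overlaps between genes. Genes named beyond the 9 members were those of the listed pathway genes called in either fit (at most 6), and the 5 genes most like the member with the smallest unadjusted p. MPHOSPH8 was named as well, for its groups without overlap. One listed endothelial marker was not analysed here. The members and lists were chosen with earlier results of these data known.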

Additional observations from a re-analysis of the deposited data

Results flagged for a closer look

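In 22 groups of 4 libraries (the 9 members, EHMT2 and EHMT1 in each group), 1 library lay beyond Dixon's 95% critical value, and chance gives about 1 in 20 groups. It was EHMT1 in control replicate 3, at 27.1 CPM, with the rest of its group at 37.7 to 39.5 CPM. No value of a writer, cofactor or reader was beyond that limit in its group.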

How the results depend on the processing

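The block changed the calls most. Without it limma called 0 genes, with 1880 at an unadjusted p under 0.05, edgeR 0 and DESeq2 292. With the replicate block limma called 1717 genes, edgeR 1711 and DESeq2 936, of which 2, 2 and 1 were members, and the log2 change of EHMT2 was −1.10, −1.09 and −1.12. Chosen after the data were seen, the block with median-ratio scaling, quantile normalization, and pseudocounts of 0.1 and 5 called 1693, 1688, 1363 and 1710 genes, with 2, 2, 1 and 2 members and an EHMT2 change of −1.11, −1.07, −1.12 and −1.01. With the block and without replicate number 1, 2, 3 or 4, it called 972, 653, 1180 and 1392 genes, with 1, 1, 1 and 2 members and EHMT2 at −0.96, −1.16, −1.01 and −1.27. CBX1 was called in all 11 fits with the block and ATF7IP in 6 of them; in the 19 alternatives without it neither was, with limma, edgeR or DESeq2 adjusted p-values from 0.0637 for CBX1 and 0.163 for ATF7IP. The block changed no other member's call. Without the block, no filter on low values gave 18 calls, array weights 436, and leaving out both replicate 3 libraries 415. Leaving out single libraries gave 0 to 300 calls, the most without control replicate 3 and 2 without siG9a replicate 4. In none of these was a member called, and the cause was not tested. SUV39H2 changed sign with array weights (−0.20), edgeR (−0.073), DESeq2 (−0.082), without control replicate 1 (−0.37) and with the block without number 1 (−0.41). TRIM28 did so without control replicate 1 (0.0074), siG9a replicate 1 (0.0217) or siG9a replicate 4 (0.0231), and with the block without number 1 (0.0662) or 4 (0.0015). Leaving out single libraries without the block, SUV39H2 ranged from −0.37 to 0.43 and TRIM28 from −0.143 to 0.0231. The other 7 members kept their direction in all 30 alternatives. SUV39H2 was not tested at a mean of at least 5 CPM. SUV39H1 and SUV39H2 rest on 1 to 16 reads per library, which limits both.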
